A study of Arabidopsis thaliana with 12 samples.

Results

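GH3.3, AT1G23160, IAA29 and IAA18 are 4 auxin-related genes of Arabidopsis thaliana, each measured by 1 probe set that the platform annotation gives to that gene alone. They were taken by name, after their changes in these arrays were known, from 22746 tested probe sets, of which 13513 carry a single gene name. The values that led to them were the fall of AT1G23160 at 6 h and 10 h, the rise of IAA18 at 10 h and the rises of GH3.3 and IAA29 at 24 h. Their signals are therefore given as a description, with standard errors and without p-values.

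The samples were the terminal 0.5 mm of primary roots of Col-0 seedlings at 4 days post germination, with about 200 tips pooled for each array. Every seedling, mock included, carried pCRE1_XVE::MIR165A, in which the stele-specific CRE1 promoter drives XVE, an estradiol-activated transcription factor that switches on the microRNA precursor MIR165A. There were 3 biological replicates in each of 4 groups: mock plates with ethanol and no estradiol, called 0 h, and plates with ß-estradiol at 5 µM, on which seedlings spent 6 h, 10 h or 24 h. Seedlings of all groups were collected at the same age. Seedlings without the transgene on estradiol and a mock group for each time were not analysed here, and the number of independent transgenic lines is not given in the sources used here, so induction, estradiol itself and time on the plate cannot be told apart. Array medians lay between 5.97 and 6.13 on the log2 scale, and pairs of arrays correlated at 0.993 to 0.998 within groups and 0.990 to 0.997 across them. PHV, a class III HD-ZIP gene whose transcript miR165 cleaves, read 0.31 lower at 6 h (SE 0.10), 0.52 lower at 10 h and 0.41 lower at 24 h than at 0 h, with limma adjusted p-values of 0.28, 0.00631 and 0.0884. The tissue label could be set against few markers, since AGL42 was the 1 measured gene of 4 listed for the quiescent centre and stem cells and none of 4 root cap genes had a named probe set.

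Auxin acts on transcription by bringing Aux/IAA proteins to the TIR1/AFB receptors, after which they are degraded and the ARF transcription factors they repress are set free. Many Aux/IAA genes are themselves switched on by auxin, as are several GH3 genes, whose enzymes join small acids to amino acids. GH3 enzymes that act on auxin lower the amount of the active hormone, so both families provide feedback on the auxin response, which patterns the root tip and its vascular tissue.

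GH3.3 (AT2G23170), an enzyme that conjugates indole-3-acetic acid to amino acids, stayed at its mock signal for 10 h and was high on the 24 h arrays. Its log2 signal was 3.51, 3.68 and 3.196 on the 0 h arrays, 3.56, 3.62 and 3.46 after 6 h, 3.46, 3.65 and 3.71 after 10 h, and 5.09, 5.04 and 5.50 after 24 h. The 24 h arrays all lay above the other 9, while the 0 h, 6 h and 10 h arrays overlapped. The group means were 3.46 ± 0.25 on mock plates, 3.55 ± 0.08 after 6 h, 3.61 ± 0.13 after 10 h and 5.21 ± 0.25 after 24 h (SD, n = 3 each). The difference between 24 h and 0 h was 1.75 (SE 0.14), a 3.36-fold higher signal, and 91.6% of it lay between 10 h and 24 h, where the difference was 1.60 (SE 0.14). At 6 h and 10 h the differences from 0 h were 0.08 and 0.15, each about as large as or smaller than the SE of 0.14. On the 0 h, 6 h and 10 h arrays only 6.39% to 20.8% of probe sets on the same array read lower than GH3.3. RMA, the authors' method, draws such low signals together, so the ratio between 24 h and the earlier times may be understated.

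AT1G23160, a GH3 family member, had a different course: it was low by 6 h and partly back at 24 h. Its log2 signal was 8.13, 8.30 and 7.83 on the 0 h arrays, 6.87, 6.72 and 6.59 after 6 h, 6.46, 6.67 and 6.37 after 10 h, and 7.31, 7.41 and 6.94 after 24 h. All 9 arrays from estradiol plates lay below the 3 mock arrays, and the 24 h arrays lay between the mock arrays and those of 6 h and 10 h. The group means were 8.09 ± 0.23 on mock plates, 6.72 ± 0.14 after 6 h, 6.50 ± 0.16 after 10 h and 7.22 ± 0.24 after 24 h (SD, n = 3 each). The difference from 0 h was -1.36 at 6 h (SE 0.14), a signal 2.57-fold lower, and -1.58 at 10 h (SE 0.14), 2.99-fold lower. Of the 10 h difference 86.0% was present at 6 h, and the 6 h and 10 h arrays overlapped. At 24 h the signal was 0.72 above that at 10 h (SE 0.14), which undid 45.3% of the 10 h difference, and it was still 0.86 below 0 h (SE 0.14). In whole tips, fewer cells that express a gene and less of its RNA per cell cannot be told apart, which holds for each gene described here.

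**Figure D1:**
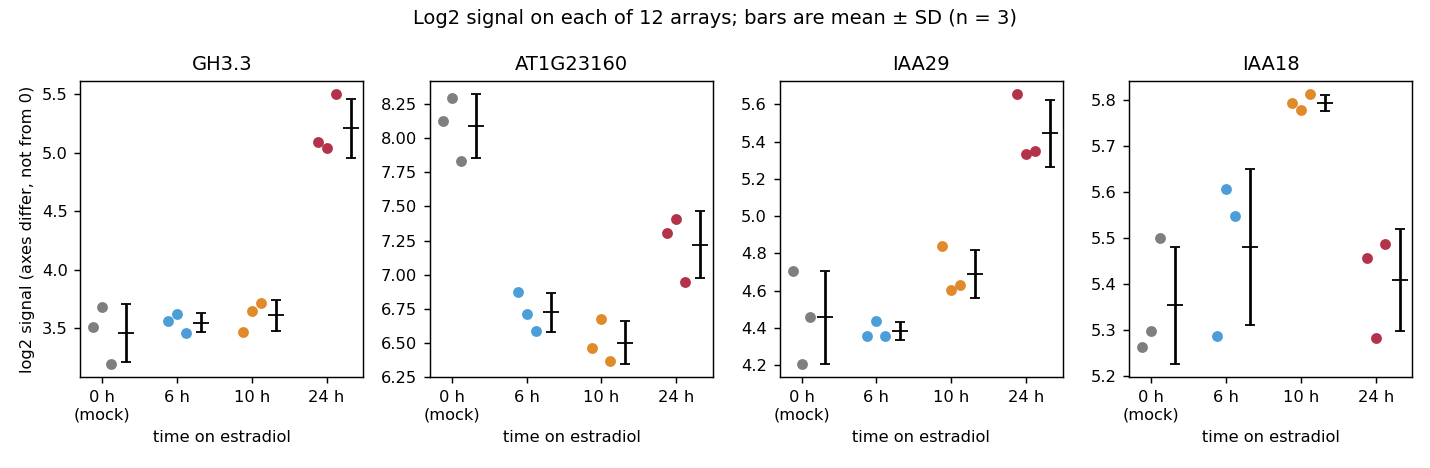
Log2 signal of the 4 genes on each array (points) by time on estradiol, with the mean ± SD of the 3 arrays of a group beside them; the vertical axes differ between genes and do not start at 0. GH3.3 and IAA29 are highest on the 24 h arrays, AT1G23160 is highest on the mock arrays, and the 3 IAA18 arrays at 10 h lie between 5.78 and 5.81.

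IAA29 (AT4G32280), an Aux/IAA repressor gene that phytochrome-interacting factors are known to switch on in shoots, was like GH3.3 highest at 24 h, with a smaller difference. Its log2 signal was 4.71, 4.21 and 4.46 on the 0 h arrays, 4.36, 4.44 and 4.36 after 6 h, 4.84, 4.60 and 4.63 after 10 h, and 5.65, 5.33 and 5.35 after 24 h. The 24 h arrays lay above all others, the 10 h arrays lay above those of 6 h, and the 0 h arrays, the most spread, overlapped both 6 h and 10 h. The group means were 4.46 ± 0.25 on mock plates, 4.38 ± 0.05 after 6 h, 4.69 ± 0.13 after 10 h and 5.44 ± 0.18 after 24 h (SD, n = 3 each). The difference between 24 h and 0 h was 0.99 (SE 0.12), a 1.98-fold higher signal, and 76.5% of it lay between 10 h and 24 h, where the difference was 0.76 (SE 0.12). Between 10 h and 6 h it was 0.31, and between 6 h and 0 h it was -0.07, with an SE of 0.12 each.

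IAA18 (AT1G51950), an Aux/IAA repressor whose stabilised mutant forms disturb lateral root formation and embryo patterning, was highest at 10 h and had the smallest span of the 4. Its log2 signal was 5.26, 5.30 and 5.50 on the 0 h arrays, 5.29, 5.61 and 5.55 after 6 h, 5.79, 5.78 and 5.81 after 10 h, and 5.46, 5.28 and 5.49 after 24 h. The 10 h arrays lay above the other 9, and the 0 h, 6 h and 24 h arrays overlapped. The group means were 5.35 ± 0.13 on mock plates, 5.48 ± 0.17 after 6 h, 5.79 ± 0.02 after 10 h and 5.41 ± 0.11 after 24 h (SD, n = 3 each). The difference between 10 h and 0 h was 0.44 (SE 0.10), a 1.36-fold higher signal, of which 28.8% was present at 6 h. At 24 h the signal was 0.39 below that at 10 h (SE 0.10), which undid 87.5% of the 10 h difference and left 0.05 above 0 h.

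The 3 measured genes of root hairs and elongating epidermis were also highest at 10 h. The marker lists were drawn up with earlier results of these data known, so no weight is put on this shared peak. EXPA7, EXPA18 and XTH18, the 3 measured of 7 listed, had a summed linear signal of 304 to 331 on the 0 h arrays, 303 to 561 after 6 h, 766 to 929 after 10 h and 494 to 607 after 24 h. XTH18, the brightest, made up most of this sum. At 24 h XTH18 read 8.79 to 8.91 in log2 signal, against 7.91 to 8.10 at 0 h (limma adjusted p = 0.048). EXPA7 and EXPA18 at 24 h overlapped the mock arrays (limma adjusted p-values of 0.417 and 0.75). GSO1, the 1 measured of 8 endodermal markers, read 5.47 to 5.95 in log2 signal on mock plates, 5.64 to 6.03 after 6 h, 6.21 to 6.64 after 10 h and 5.69 to 6.28 after 24 h. On the 24 h arrays, where GH3.3 and IAA29 were highest, the phloem gene OPS read 5.58 to 5.67, against 5.18 to 5.40 at 0 h (limma adjusted p = 0.103). AGL42 read 3.98 to 4.60 at 24 h, against 4.61 to 5.00 at 0 h (limma adjusted p = 0.483). These were the single measured genes of 6 phloem and 4 stem cell markers, and none of 8 xylem markers had a named probe set. The part of cell composition in the courses of the 4 genes was not tested.

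Set side by side, the comparisons with 0 h share the mock arrays. At 6 h the groups of arrays did not overlap for AT1G23160 alone, at 10 h for AT1G23160 and IAA18, and at 24 h for AT1G23160, GH3.3 and IAA29. Over all probe sets 14.4% did not overlap at 6 h, 26.9% at 10 h and 13.4% at 24 h, and since the 4 genes were chosen on these comparisons nothing is read from the counts. Between 24 h and 10 h none of the 4 overlapped, with GH3.3, IAA29 and AT1G23160 higher and IAA18 lower at 24 h, where the share over all probe sets was 20.6%. Between 10 h and 6 h IAA29 and IAA18 did not overlap, both higher at 10 h, and the share over all probe sets was 21.2%.

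**Figure D2:**
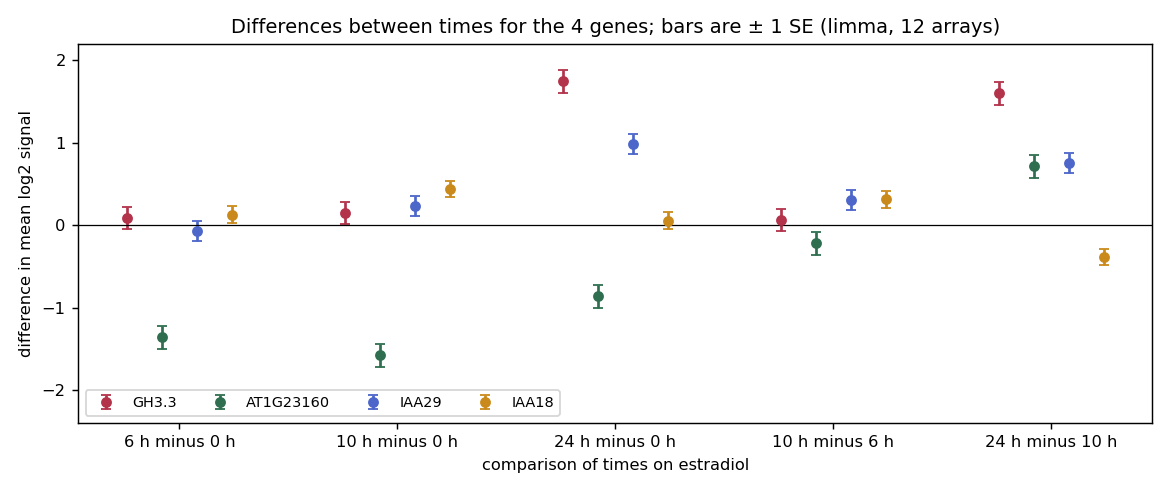
Difference in mean log2 signal between times for the 4 genes (points), with bars of ± 1 SE from the linear model over all 12 arrays. GH3.3 stands at 1.75 for 24 h minus 0 h and 1.60 for 24 h minus 10 h, AT1G23160 at -1.36 and -1.58 for 6 h and 10 h minus 0 h, and IAA18 changes sign between the 10 h minus 0 h and the 24 h minus 10 h comparisons.

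GH3.3 and IAA29 shared the late step and little else. Over the 12 arrays their signals correlated at a Pearson r of 0.88 and a Spearman rho of 0.52. On the 9 arrays of 0 h, 6 h and 10 h the Pearson r was -0.09, so the relation rests on the 24 h arrays. At 24 h itself GH3.3 was highest on replicate 3 and IAA29 on replicate 1. AT1G23160 and IAA18 ran against each other, with a Pearson r of -0.75 and a Spearman rho of -0.82 over the 12 arrays, and a Pearson r of -0.80 without the mock arrays. Taken as deviations from the group means, which removes the differences between times, their r was still -0.72. Replicate 3 read lowest for AT1G23160 in every group, with signals of 7.83, 6.59, 6.37 and 6.94 in order of time. Replicate 3 also read highest for IAA18 in every group but 1, with 5.50 on mock plates, 5.81 after 10 h and 5.49 after 24 h. The exception was the 6 h group, where replicate 2 read 5.61 and replicate 3 read 5.55. Whether the replicate 3 arrays share an effect that enters this r was not tested. The arrays share the time course and each array's own RNA, so these correlations describe 12 arrays and carry no p-value. The other 4 pairs had a Pearson r between -0.24 and 0.01.

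**Figure D3:**
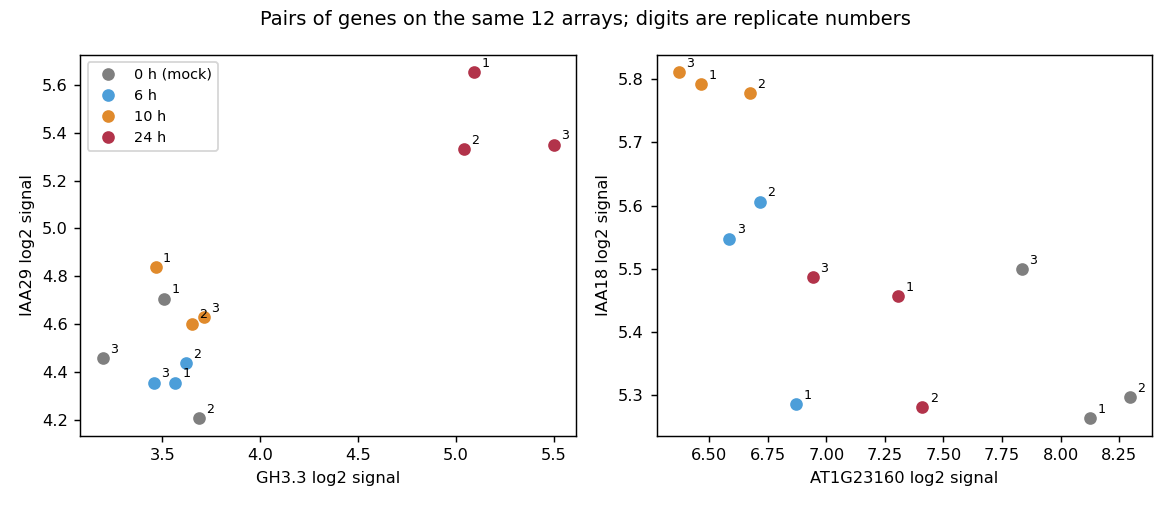
Log2 signals of GH3.3 and IAA29 (left) and of AT1G23160 and IAA18 (right) on the same 12 arrays, coloured by time on estradiol, with the replicate number beside each point. On the left the 3 arrays of 24 h stand apart and the other 9 show no slope (r = -0.09); on the right arrays with lower AT1G23160 have higher IAA18 (r = -0.75).

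Besides GH3.3 and AT1G23160, which were not tested here, no measured gene of the GH3 family passed the test. AT1G23160 and 5 of the other loci counted here (AT5G51470, AT5G13350, AT5G13380, AT1G48670 and AT1G48660) carry no family name in the gene tables used and were placed in the family by locus tag from general knowledge. Of 19 GH3 loci on the list, 11 were measured by a probe set of their own, and none of the 9 besides GH3.3 and AT1G23160 passed an adjusted p of 0.05 in limma at 6 h, 10 h or 24 h against 0 h. Over all probe sets 0.422%, 7.5% and 0.761% passed. At an unadjusted p under 0.05 there were 3 of the 9 at 6 h, 2 at 10 h and 3 at 24 h, beside 9.39%, 20.6% and 10.7% of all probe sets, and with trended and robust variances none passed either. GH3.1, an auxin-inducible auxin conjugating enzyme, came nearest. Its log2 signal was 5.05 to 5.32 after 10 h, against 4.60 to 4.85 at 0 h, a difference of 0.43 (SE 0.13, limma adjusted p = 0.0578) with no overlap. GH3.1 passed at 10 h when the 2 groups were fitted alone (limma adjusted p = 0.0292) and in no other setting tried, where the adjusted p lay between 0.0507 and 0.221. At 24 h GH3.1 read 0.48 above 0 h (SE 0.13, limma adjusted p = 0.123), with 0.05 of that between 10 h and 24 h, where GH3.3 had nearly all of its difference.

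At 6 h, when AT1G23160 was already low, 5 of these 9 genes lay below the mock arrays without overlap and 8 of the 9 had negative differences, with a median of -0.15, beside 7.33% of all probe sets lying below and a median of 0.00 over all. The lowest values were -0.46 for AT5G51470 and -0.37 for GH3.17 (limma adjusted p = 0.237 for both), against -1.36 for AT1G23160. WES1, which the gene table also lists as GH3.5, read -0.30 (limma adjusted p = 0.347). GH3.9 and AT1G48660, also among the 5, read only -0.15 and -0.14 (limma adjusted p-values of 0.634 and 0.687). AT1G48660 was near the floor, with on average 4.10% of probe sets reading lower on the 0 h arrays. All 9 genes were set against the same mock arrays. At 24 h the median of the 9 was 0.03 and differences ran from -0.15 to 0.48. AT1G48670 read 0.30 above 0 h there (limma adjusted p = 0.321).

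Between 10 h and 6 h and between 24 h and 10 h none of the 9 passed in limma either, where 1.24% and 1.79% of all probe sets did. In each of these comparisons 2 of the 9 had an unadjusted p under 0.05, beside 11.8% and 15.5% of all probe sets, and none passed with trended and robust variances. Without 24 h replicate 3, AT5G51470 passed between 24 h and 10 h, with a difference of 0.44 (limma adjusted p = 0.0449).

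**Figure D4:**
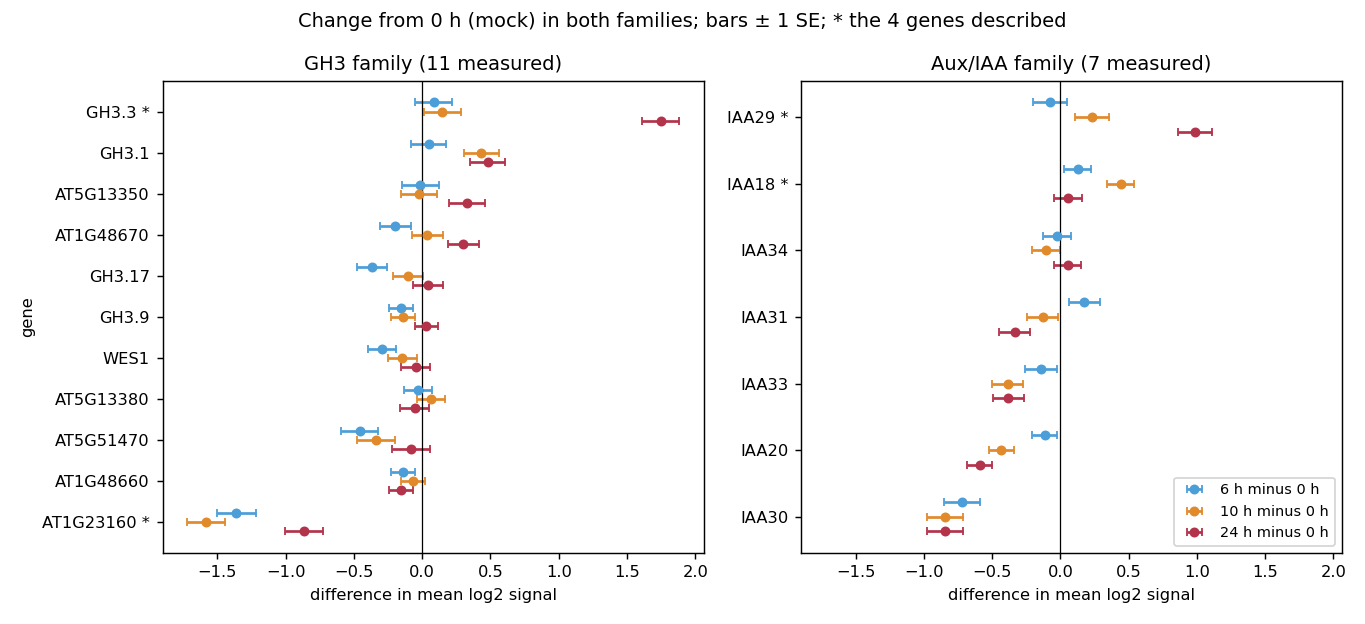
Change in mean log2 signal from 0 h at 6 h, 10 h and 24 h for the 11 measured GH3 genes (left) and the 7 measured Aux/IAA genes (right), ordered by the 24 h value, with bars of ± 1 SE and the 4 genes described marked by an asterisk. GH3.3 and IAA29 lie to the right of their families at 24 h, at 1.75 and 0.99, and IAA30 and IAA20 lie lowest among the Aux/IAA genes, at -0.84 and -0.59.

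Among the few measured Aux/IAA genes besides IAA29 and IAA18, which were not tested here, those that passed the test fell. Of 29 listed genes 7 had a named probe set, and of the 5 besides IAA29 and IAA18, 1 fell at 6 h, 2 fell at 10 h and 2 fell at 24 h, while none rose. Over all probe sets 0.207% fell at 6 h, 2.79% at 10 h and 0.233% at 24 h. IAA30 fell by 0.72 at 6 h (SE 0.13, limma adjusted p = 0.0262), by 0.84 at 10 h (limma adjusted p = 0.00161) and by 0.84 at 24 h (limma adjusted p = 0.0082). IAA20 fell by 0.43 at 10 h (SE 0.09, limma adjusted p = 0.011) and by 0.59 at 24 h (limma adjusted p = 0.00842). The 6 h call on IAA30 ended without mock replicate 1 (limma adjusted p = 0.0984), mock replicate 3 (0.068), 6 h replicate 2 (0.108) or 6 h replicate 3 (0.148), and the 10 h call on IAA20 ended without 10 h replicate 3 (0.0628).

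In the model over all arrays as deposited, without a replicate block, the remaining Aux/IAA genes did not pass. IAA33 read -0.39 at 10 h against 0 h (SE 0.12, limma adjusted p = 0.0591) and lay near the threshold. It passed after quantile normalization (limma adjusted p = 0.0456) and, at -0.48, without mock replicate 2 (limma adjusted p = 0.0367). IAA31 read -0.34 at 24 h (SE 0.11, limma adjusted p = 0.25). IAA34 differed from 0 h by -0.02, -0.10 and 0.05 at 6 h, 10 h and 24 h. The 5 genes had a median of -0.39 at 10 h and -0.38 at 24 h, where the medians over all probe sets were both -0.01. Over the same comparisons IAA18 stood at 0.44 and 0.05 and IAA29 at 0.23 and 0.99. Most of the 29 listed genes had no named probe set, so the medians of these 5 do not stand for the family. Between 10 h and 6 h and between 24 h and 10 h none of the 5 passed in limma, where 1.24% and 1.79% of all probe sets did, and none passed with trended and robust variances. At an unadjusted p under 0.05 there were 2 and 0 of the 5, beside 11.8% and 15.5% of all probe sets.

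Genes of auxin synthesis, turnover and lateral root response showed no call. YUC2, YUC4, YUC6 and YUC11 of auxin synthesis (4 measured of 14 listed), AT1G14130 and AT1G14120 of auxin turnover (2 of 9) and LBD16 and LBD29, transcription factors downstream of auxin in lateral roots (2 of 5), made 8 genes. Against 0 h their differences ran from -0.15 to 0.15 at 6 h, from -0.19 to 0.08 at 10 h and from -0.27 to 0.21 at 24 h. None passed in limma in any of the 5 comparisons, with or without trended and robust variances, where 0.422% to 7.5% of all probe sets passed. At an unadjusted p under 0.05 there was 1 of the 8 at 24 h against 0 h, 1 between 10 h and 6 h, 1 between 24 h and 10 h and none in the other comparisons, which is near the shares over all probe sets of 10.7%, 11.8% and 15.5% in those 3 comparisons. LBD16 read -0.27 at 24 h (SE 0.11, limma adjusted p = 0.372), and YUC6 read 0.30 higher at 24 h than at 10 h (SE 0.11, limma adjusted p = 0.206). The listed ARF genes, auxin receptors and auxin carriers had no named probe set and are not analysed here. SAUR genes are not analysed here either, since the list held only 1 entry for that family and did not look up its genes singly.

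Likeness of other genes to each of the 4 was measured by the Pearson r of log2 signals over the 12 arrays, among 840 named probe sets whose group means spanned at least 0.5. The genes most like GH3.3 were AT3G15250 (r = 0.90), AT1G68470 (r = 0.89), AT5G39220 (r = 0.88), AT4G21310 (r = 0.88) and IAA29 (r = 0.88). The genes most opposite to GH3.3 had a larger absolute r over the 12 arrays than any of these: AT2G28410 had r = -0.97, AT1G47410 had r = -0.97 and AT1G28400 had r = -0.93. Over the 4 group means this order did not hold throughout, with 0.99 for AT5G39220 and -0.98 for AT1G28400. AT2G28410 averaged 7.10 on mock plates, 6.997 after 6 h, 6.78 after 10 h and 5.19 after 24 h. By Spearman rho the 5 most like stood at 0.52 to 0.80 and the 3 most opposite at -0.85 to -0.66.

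The genes most like IAA29 were AT3G48185 (r = 0.93), HMT-1, a homocysteine methyltransferase gene (r = 0.91), AT2G27740 (r = 0.91), AT5G26330 (r = 0.91) and GH3.3 (r = 0.88). At 10 h AT2G27740 read 0.68 and AT5G26330 0.62 above 0 h, beside 0.23 for IAA29 itself and 0.15 for GH3.3. AT2G28410 was again the most opposite (r = -0.94), followed by SAH7 (r = -0.93) and AT3G52070 (r = -0.92).

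Genes picked by r over these arrays for likeness to AT1G23160 were bound to share much of its course, the early fall included. The genes most like it were hemb2 (r = 0.95), AT3G22060 (r = 0.94), AT5G58784 (r = 0.93), AT1G66800 (r = 0.93) and AT5G23840 (r = 0.93), which stood between 0.55 and 0.97 below 0 h at 6 h, against 1.36 for AT1G23160. The mean of hemb2 was 7.29 on mock plates, 6.40 after 6 h, 6.26 after 10 h and 6.74 after 24 h, the same order of times as AT1G23160. The most opposite were AT1G13930 (r = -0.96), AT3G55470 (r = -0.94) and LCR68, a defensin-like peptide gene (r = -0.93).

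The genes most like IAA18 were AT1G02305 (r = 0.97), AT5G18150 (r = 0.95), AT1G77020 (r = 0.93), AT3G19030 (r = 0.92) and AT5G43520 (r = 0.92). AT3G19030 and AT5G43520 had larger steps than IAA18, at 1.16 and 1.19 above 0 h at 10 h, against 0.44 for IAA18. The most opposite were AT3G57940 (r = -0.88), AT1G07840 (r = -0.87) and AT3G24080 (r = -0.84). Each of these likenesses is a description over arrays that share 1 time course.

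**Figure D5:**
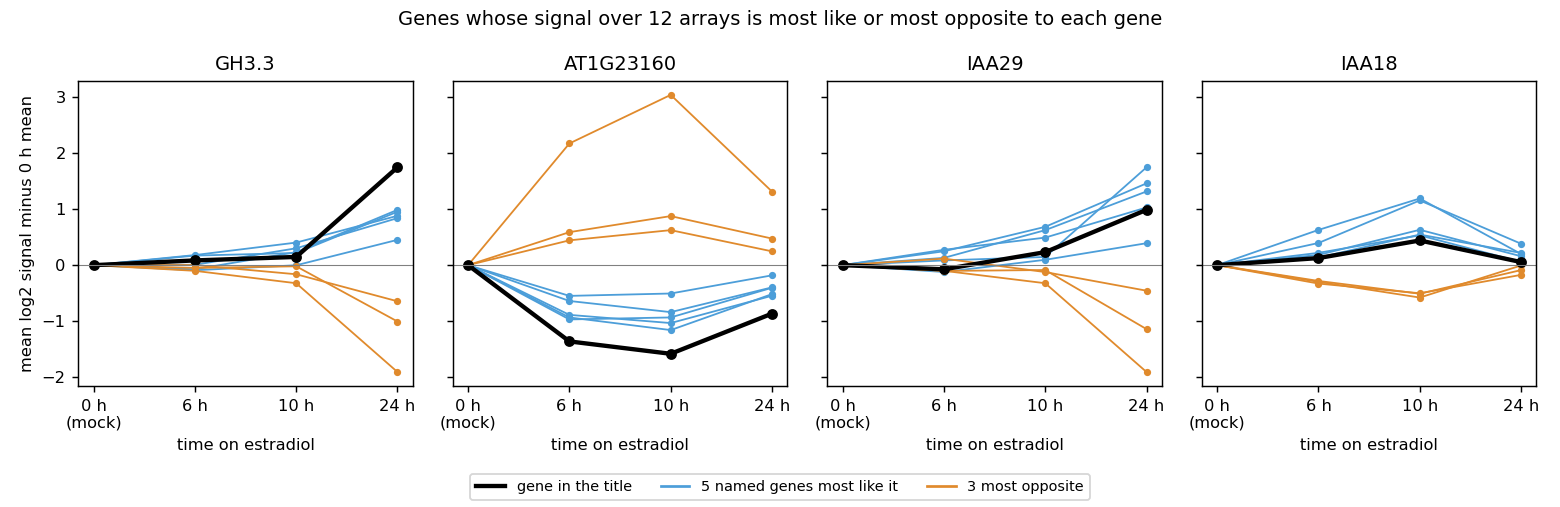
Mean log2 signal minus the 0 h mean at each time on estradiol (times evenly spaced on the axis) for each of the 4 genes (black), the 5 named genes most like it (blue) and the 3 most opposite (orange), n = 3 arrays a time. The courses around GH3.3 and IAA29 part from 0 mainly at 24 h, those around AT1G23160 at 6 h, and those around IAA18 are farthest from 0 at 10 h.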

How the data were processed

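Root tip RNA (250 ng per array, per the labels' protocols) was measured on 12 single-colour Affymetrix ATH1 arrays. The deposited values are log2 probe-set signals, for which the submitters' processing notes name Affymetrix Expression Console, RMA (background correction, quantile normalization and probe summary) and limma, with versions not given in the sources used here. Of 22810 probe sets 64 controls were left out. Names came from the platform annotation, matched by gene number to a RefSeq table of assembly TAIR10.1. No coordinates or sequences are given, as no build or sequence was used here.

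Groups were compared in 1 linear model over all arrays with limma 3.58.1 (R 4.3.3), with Benjamini-Hochberg adjustment over 22746 probe sets at 0.05, and the method was tested on simulated data. The members and gene lists were chosen with earlier results of these data known. Named genes are the 4 members, all measured GH3 and Aux/IAA genes, list genes past the threshold or else the 2 with the smallest p, and for each member the 5 most like and 3 most opposite. Results were repeated, each where it applied, after rescaling the arrays, without the dimmest 25% of probe sets, with trended and robust variances, with the replicate number as a block, with the 2 groups alone and without each array in turn. The number of arrays limits the precision.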

Additional observations from a re-analysis of the deposited data

Results flagged for a closer look

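The change of IAA29 from the 0 h mean differed in sign between times. Against the 0 h mean, all 3 arrays of 6 h lay below and all 3 arrays of 10 h and of 24 h lay above. The mock arrays themselves ran from 4.21 to 4.71 and overlapped those of 6 h and of 10 h, so neither sign stands clear of the mock spread. The change at 10 h minus that at 6 h was 0.31, and the change at 24 h minus that at 6 h was 1.06. Neither difference was tested, since IAA29 was chosen for its course over these arrays. The 6 h change was -0.07 (SE 0.12), and it read 0.05 without mock replicate 1 and -0.20 without mock replicate 2.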

How the results depend on the processing

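The 4 genes' differences in each of the 5 comparisons moved by less than the spread between replicates in all 180 values tried. These covered both other scalings, the replicate block and leaving out any array of the groups compared. The block cannot alter a difference when every group holds each replicate number, so its values say nothing about stability. Leaving out an array can move a group mean by only part of that group's SD, so those shifts were bound to be small. Leaving out an array changed the sign of small differences only, GH3.3 and IAA29 at 6 h. The difference of GH3.3 at 24 h against 0 h ranged from 1.60 to 1.86, that of IAA29 from 0.86 to 1.11, that of IAA18 at 10 h from 0.40 to 0.51 and that of AT1G23160 at 6 h from -1.49 to -1.26.

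Counts over all probe sets moved more. At 6 h the 96 calls became 169 with trended and robust variances and 160 with the replicate block, and 34 to 126 without an array. At 10 h the 1705 calls became 875 to 1420 without an array. At 24 h the 173 calls became 355 with the replicate block, 53 with the 2 groups alone and 65 to 190 without an array. Between 10 h and 6 h, 283 became 481, 483 and 64 to 433 in the same order. Between 24 h and 10 h, 407 became 646 with the block, 685 with trended and robust variances and 93 to 799 without an array. Centring arrays on their medians took the share of calls between 24 h and 10 h that were higher at 24 h to 53.0%, against 40.5% as deposited. The auxin list calls numbered 0 to 1 at 6 h, 1 to 3 at 10 h and 0 to 1 between 24 h and 10 h without an array. In the 2 groups alone they numbered 0 at 6 h and 1 at 24 h, against 1 and 2, as IAA30 did not pass (limma adjusted p-values of 0.0799 and 0.0595). At 10 h the 2 calls became 3 with quantile normalization and with the replicate block, both through IAA33 (0.0456 and 0.0315), and with the 2 groups alone, through GH3.1 (0.0292). Quantile normalization, trended variances and the 2 groups alone were added for the auxin lists after seeing the data.

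The replicate numbers do not show by themselves whether samples were paired. Deviations of same-numbered arrays from their group means correlated at -0.10 to 0.28, and 8 of 12 arrays correlated best with their own number. The mean r was 0.11 for number 1, -0.05 for number 2 and 0.11 for number 3. An effect shared by same-numbered arrays was not tested, so the block counts above are given as a description. In a check chosen after seeing the data, leaving out the 24 h arrays took the r of GH3.3 with IAA29 to -0.09. Of the 5 genes most like each gene, 3 or 4 were shared after centring and 1 or 2 by Spearman rho. GH3.3's low signals before 24 h limit what can be read from its early values.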

Other observations

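The genes next to the 4 on their chromosomes, in the order of assembly TAIR10.1, were looked up after the values had been seen. Of 16 protein-coding neighbours, 2 on each side of each gene, 5 had a named probe set of their own, and none of these passed in limma in any of the 5 comparisons. AT2G23160, next to GH3.3, read 0.15 above 0 h at 24 h (SE 0.11, limma adjusted p = 0.684), against 1.75 for GH3.3. AT4G32270 and AT4G32290, to either side of IAA29, read -0.03 and -0.17 at 24 h (limma adjusted p-values of 0.962 and 0.66), against 0.99 for IAA29. AT1G23180, near AT1G23160, read -0.04 at 6 h (limma adjusted p = 0.945), against -1.36. IQD27, next to IAA18, read 0.24 above 0 h at 10 h without overlap (SE 0.09, limma adjusted p = 0.163), against 0.44 for IAA18.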
